A study of Mus musculus with 13 samples.

Results

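The 10 genes described here encode proteins of microfibrils and elastic fibres: Fbn1, Mfap4, Eln, Fbln1, Fbln2, Fbln5, Ltbp1, Ltbp2, Ltbp3 and Ltbp4. They were chosen by gene symbol from the 53278 symbols of the deposited count files, with earlier results of these data known. The shares of all genes given beside their counts are therefore a description and no test. All 10 were among the 15690 genes with enough counts to be tested. The hearts came from 13 male wild-type C57Bl6 mice aged 17 weeks, whose surgery and injections had been done at 12 weeks, 5 weeks before. The Sham group (3 hearts) had sham surgery and no injection. The IR group (3 hearts) had ischaemia and reperfusion, a temporary block of a coronary artery followed by return of flow, and no injection. The IR virus group (3 hearts) had the same injury and a control virus, and the IR edit group (4 hearts) had the injury and a functional system for base editing of CaMKIIδ, a calcium-dependent kinase of heart muscle. No group had sham surgery with an injection. The labels name neither the kind nor the dose of the virus, and RNA came from whole hearts, so injured and spared tissue were not separated.

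Microfibrils are thin extracellular filaments built mainly of fibrillins. Elastic fibres form when tropoelastin, the product of Eln, is laid on a microfibril scaffold and cross-linked by lysyl oxidases, with fibulins as adaptors. The latent TGF-β binding proteins (LTBPs) sit on the same filaments, and several of them hold TGF-β, a growth factor of scar formation, in an inactive store. In the heart these proteins are known from vessel walls, valves, the epicardium and the interstitium, where fibroblasts and smooth muscle cells make most of them.

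Each library held between 20634820 and 27265276 counts. Levels are given as CPM, counts relative to TMM-scaled library sizes, in replicate order within each group. Group differences were tested with edgeR's quasi-likelihood test in 1 fit of all 13 libraries, with Benjamini-Hochberg adjustment over the 15690 genes, and a gene is called where its adjusted p is under 0.05. Log2 fold changes carry their standard error (SE). The titles number the hearts within a group but do not say more of their origin, so the p-values measure the spread between these hearts. In RNA from whole tissue, fewer cells of a type and less RNA per cell cannot be told apart. Camk2d, the gene of the edited kinase, had 251 ± 45.1 CPM in Sham, 241 ± 5.42 in IR, 217 ± 18.4 in IR virus and 223 ± 17.9 in IR edit (SD, n = 3, 3, 3 and 4) and was not called in any comparison (smallest adjusted p 0.369). Gene counts do not report single-base edits, so these values do not check the editing. All 8 cardiomyocyte markers were counted in every heart, with summed levels of 36956 to 50089.7 CPM, as the tissue label requires. The summed CPM of 7 fibroblast markers was 855 to 876 in Sham, 956 to 1259.7 in IR, 1036 to 1276 in IR virus and 898 to 1333 in IR edit.

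In the annotation of the mouse genome (GENCODE M21, mm10), Fbn1 lies at chr2:125300594-125507993 on the minus strand and Eln at chr5:134702593-134747323 on the minus strand. Mfap4 lies at chr11:61485431-61488900 on the plus strand. The fibulin genes are Fbln1 at chr15:85205949-85286535 (plus), Fbln2 at chr6:91212455-91272540 (plus) and Fbln5 at chr12:101746565-101819055 (minus). The LTBP genes are Ltbp1 at chr17:75005568-75392512 (plus), Ltbp2 at chr12:84783212-84876532 (minus), Ltbp3 at chr19:5740904-5758532 (plus) and Ltbp4 at chr7:27305136-27337692 (minus). Exons of some of the genes overlap an exon of a gene on the opposite strand, and the sources used here do not say whether counting used strand. The overlapping genes of Fbn1, Eln and Ltbp2 had at most 5 counts in any library, against at least 32 for the 3 genes themselves. Mfap4 shares 89 bases with Mapk7, which had 68 to 130 counts against 47 to 896 for Mfap4. The Ltbp3 and Mfap4 counts are less certain than the others.

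RefSeq promoter windows (build GRCm38.p6, the 250 bases before each annotated start) were found for 8 of the 10 genes, as 13 windows, and not for Eln and Mfap4. Since LTBPs hold TGF-β and SMAD proteins carry its signal, the windows were searched on both strands for CAGAC, the core of a SMAD-binding element. It was present in 7 of the 13 windows, from 5 genes, and in 42.2% of all 32851 windows of this length. Windows of 1 gene can overlap, so they are not independent. The GC box GGGCGG was present in 8 of 13 windows (32.7% of all), CCAAT in 3 (33.8%), the AP-1 site TGANTCA in 0 (6.75%) and TATAAA in 0 (12.4%). No motif of the 5 is contained in another. A match describes the letters of a window and says nothing of binding. The 3 windows printed here cover no annotated exon and are given 5′ to 3′ on the gene's strand. They were chosen because their genes had different patterns over the groups. Fbln1 had its highest group means in injured hearts without the editing system. Ltbp1 was nearly flat, and Fbln5 had similar mean levels in all injured groups. Capitals mark CAGAC or its reverse complement GTCTG.
Fbln1, chr15:85205699-85205948, plus strand: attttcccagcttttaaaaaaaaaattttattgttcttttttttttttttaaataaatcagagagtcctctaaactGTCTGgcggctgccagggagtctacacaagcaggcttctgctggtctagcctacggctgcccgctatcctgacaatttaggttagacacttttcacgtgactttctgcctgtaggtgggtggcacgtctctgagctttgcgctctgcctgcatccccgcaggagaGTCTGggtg
Ltbp1, chr17:75005279-75005528, plus strand: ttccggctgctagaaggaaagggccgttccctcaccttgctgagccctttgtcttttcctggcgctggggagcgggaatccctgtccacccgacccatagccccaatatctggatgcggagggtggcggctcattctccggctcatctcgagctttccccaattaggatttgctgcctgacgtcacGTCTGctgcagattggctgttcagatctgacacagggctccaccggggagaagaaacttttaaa
Fbln5, chr12:101819120-101819369, minus strand: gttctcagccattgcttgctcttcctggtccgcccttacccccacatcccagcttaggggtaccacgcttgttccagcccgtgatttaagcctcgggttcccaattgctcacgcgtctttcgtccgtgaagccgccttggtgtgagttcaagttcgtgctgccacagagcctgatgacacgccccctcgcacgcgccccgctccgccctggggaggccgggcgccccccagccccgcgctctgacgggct
The Fbln1 window holds the core at 2 places, whose first bases lie 174 and 9 bases before the RefSeq start. The Ltbp1 window holds it once, 64 bases before the start, and the Fbln5 window printed does not hold these letters. A further Fbln5 window (chr12:101818485-101818734), not printed because it reaches 1 base into an annotated exon, holds the core at 2 places, 199 and 15 bases before its start, so Fbln5 is among the 5 genes.

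Per kilobase of exon (CPM per kb), the scale on which levels of different genes can be set side by side, Ltbp4 had the highest mean of the 10 genes in every group and Ltbp2 the lowest. Ltbp4 stood at 20.6 ± 4.79 CPM per kb in Sham and 35.1 ± 11.2 in IR edit (SD, n = 3 and 4). Ltbp2 stood at 0.349 ± 0.145 and 3.04 ± 2.65 CPM per kb in the same groups. In Sham the order below Ltbp4 was Fbln1, Fbln2, Ltbp1 and Fbn1, from 8.89 to 6.95 CPM per kb, and these neighbours overlapped in their hearts. A gap then separated Fbn1 from Fbln5, Mfap4, Ltbp3 and Eln, which overlapped between 2.69 and 1.79 CPM per kb, and another gap separated Eln from Ltbp2. In IR and IR virus hearts Fbln1 again had the next highest mean after Ltbp4, at 14.7 ± 2.33 and 17.9 ± 3.90 CPM per kb. In IR edit hearts it ranked 4 at 11.5 ± 1.69 CPM per kb, behind Fbln2 at 18.0 ± 7.98 and Fbn1 at 17.6 ± 5.43, and every neighbouring pair in that group overlapped.

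Most of the 10 genes had higher mean levels in injured hearts than in Sham hearts, with Ltbp2 and Mfap4 furthest apart and Ltbp1 nearly level. In the IR edit hearts 7 of the 10 passed the test against Sham, all higher: Fbn1, Mfap4, Eln, Fbln2, Fbln5, Ltbp2 and Ltbp3. Of all genes tested 4.61% were called higher and 8.01% in either direction in that comparison. No gene of the set passed against Sham in IR or IR virus hearts, where 0.0127% of all genes did in each, nor between IR edit and IR virus hearts (2.02%). A difference in calls between these comparisons was not tested. Fbln1 had its highest mean levels in the injured hearts without the editing system. It was lower in all 4 IR edit hearts than in all 3 IR virus hearts, a difference that missed the threshold. The IR edit and IR hearts overlapped for Fbln1, and their log2 difference of -0.35 ± 0.16 did not pass (adjusted p = 0.343).

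**Figure D1:**
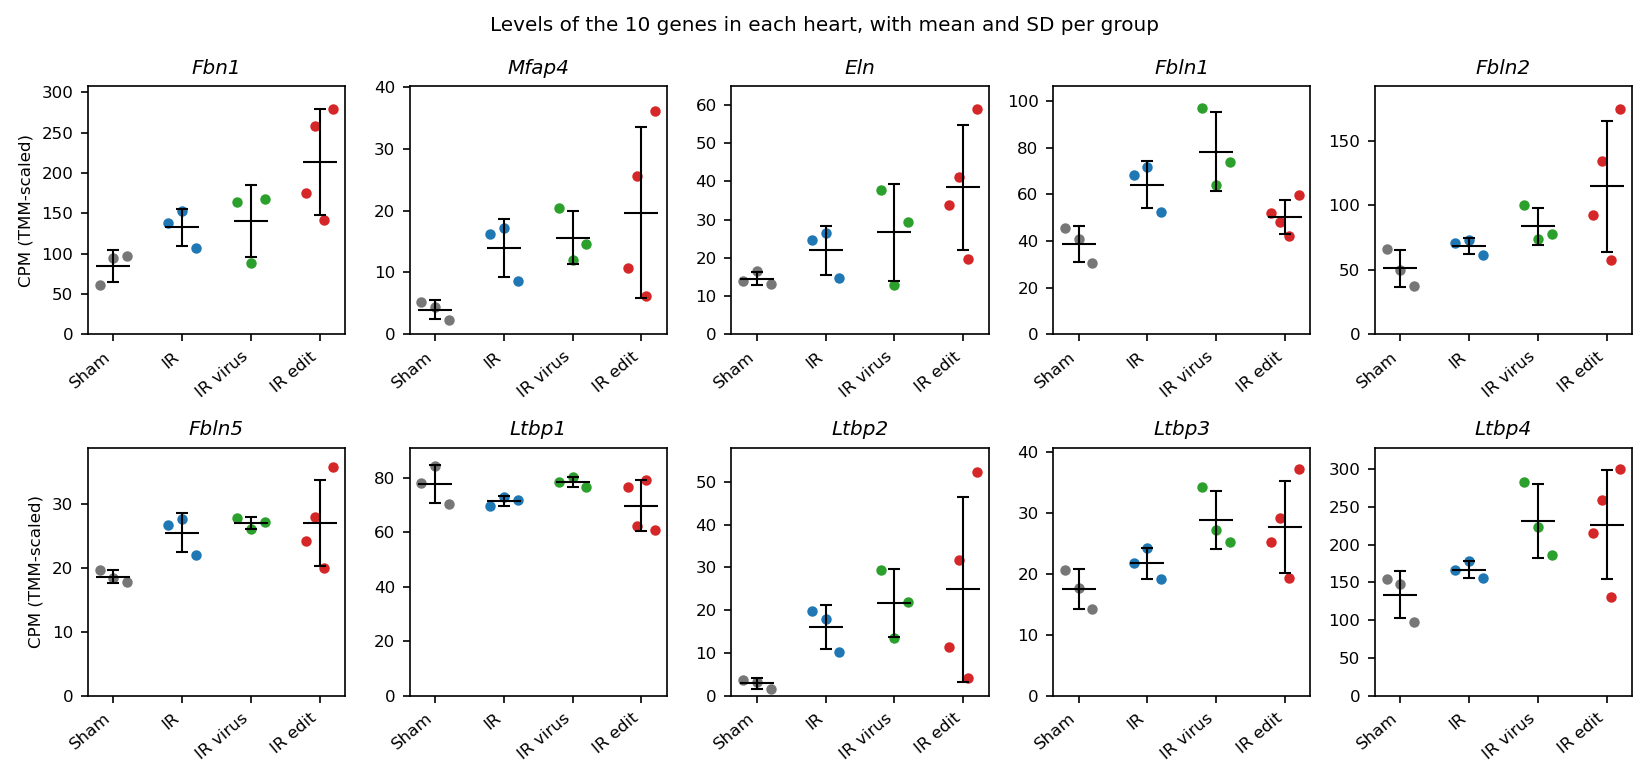
Level of each of the 10 genes in every heart (points; y axis, TMM-scaled CPM from 0; x axis, group), with the group mean and SD in black. For Ltbp2 the Sham hearts lie at or below 3.78 CPM and every injured heart above that, while the 4 IR edit hearts span 4.04 to 52.2 CPM.

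Fbn1 encodes fibrillin-1, the main building block of microfibrils in adult tissue. Its levels were 61.5, 94.5 and 97.0 CPM in the Sham hearts and 138, 153 and 107 CPM in the IR hearts. They were 164, 88.6 and 168 CPM in the IR virus hearts and 175, 258, 142 and 279.7 CPM in the IR edit hearts. All IR and IR edit hearts lay above all Sham hearts, while IR virus replicate 2 lay within the Sham range. Fbn1 rose in IR edit against Sham by a log2 fold change of 1.34 ± 0.26, or 2.54-fold (adjusted p = 0.00771). It was the only one of the 10 genes still called with each of the 13 libraries left out in turn. Against Sham the differences of 0.65 ± 0.27 in IR (adjusted p = 0.548) and 0.73 ± 0.27 in IR virus (adjusted p = 0.238) did not pass. Between IR edit and IR virus the difference was 0.61 ± 0.25 (adjusted p = 0.26), with 3 of 4 IR edit hearts above every IR virus heart.

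Mfap4 encodes a microfibril-associated glycoprotein that binds fibrillin and tropoelastin. Its levels were 5.25, 4.35 and 2.22 CPM in Sham and 16.2, 17.3 and 8.62 CPM in IR hearts. In IR virus hearts they were 20.4, 12.0 and 14.6 CPM, and in IR edit hearts 10.8, 25.6, 6.21 and 36.2 CPM. Every injured heart stood above every Sham heart, with IR edit replicate 3 closest to them and IR edit replicate 4 highest. Mfap4 rose in IR edit against Sham by 2.31 ± 0.51 on the log2 scale, or 4.96-fold (adjusted p = 0.0144). The log2 differences from Sham of 1.81 ± 0.53 in IR (adjusted p = 0.359) and 1.97 ± 0.53 in IR virus (adjusted p = 0.155) did not pass. From IR virus to IR edit the difference was 0.34 ± 0.44 (adjusted p = 0.76), and its sign turned without IR edit replicate 4.

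Eln encodes tropoelastin, the soluble precursor of elastin. The Sham hearts had 14.0, 16.5 and 13.1 CPM and the IR hearts 24.6, 26.4 and 14.7 CPM. The IR virus hearts had 37.7, 12.8 and 29.4 CPM and the IR edit hearts 33.9, 41.0, 19.7 and 58.9 CPM. The IR edit hearts all stood above Sham, whereas IR replicate 3 lay within the Sham range and IR virus replicate 2 just below it. Eln rose in IR edit against Sham by 1.41 ± 0.35 on the log2 scale, or 2.65-fold (adjusted p = 0.0264). The differences from Sham were 0.59 ± 0.37 in IR (adjusted p = 0.703) and 0.88 ± 0.37 in IR virus (adjusted p = 0.284). Between IR edit and IR virus Eln differed by 0.53 ± 0.34 (adjusted p = 0.48).

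The fibulins are calcium-binding glycoproteins that link elastic fibres, basement membranes and cells. Fbln5 encodes fibulin-5, which binds tropoelastin and integrins and is needed for elastic fibre assembly. Its levels were 19.7, 18.4 and 17.7 CPM in Sham, 26.8, 27.7 and 22.0 in IR and 27.8, 26.0 and 27.1 in IR virus hearts. In IR edit hearts they were 24.3, 28.0, 20.0 and 35.7 CPM. The lowest injured heart, IR edit replicate 3, lay just above the highest Sham heart. Fbln5 rose in IR edit against Sham by 0.54 ± 0.15 (adjusted p = 0.0376), with the SD of the IR edit group at 6.66 CPM against 0.9 CPM in IR virus. The mean levels of IR virus and IR edit hearts were both 27.0 CPM, and the 95% interval of their log2 difference was -0.31 to 0.31. The differences from Sham of 0.45 ± 0.16 in IR (adjusted p = 0.458) and 0.54 ± 0.16 in IR virus (adjusted p = 0.175) did not pass.

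Fbln2 encodes fibulin-2, which binds fibrillin-1, tropoelastin and basement membrane proteins. Sham hearts had 65.9, 50.0 and 37.5 CPM and IR hearts 70.8, 72.9 and 61.4 CPM. IR virus hearts had 100.1, 73.7 and 77.4 CPM and IR edit hearts 92.0, 134, 57.7 and 175 CPM. All IR virus hearts lay above Sham, while IR replicate 3 and IR edit replicate 3 lay within the Sham range. Fbln2 rose in IR edit against Sham by 1.16 ± 0.28, or 2.24-fold (adjusted p = 0.0221). In IR and IR virus the differences from Sham were 0.42 ± 0.29 (adjusted p = 0.736) and 0.71 ± 0.29 (adjusted p = 0.273). Between IR edit and IR virus Fbln2 differed by 0.45 ± 0.27 (adjusted p = 0.454).

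Fbln1 encodes fibulin-1, a component of basement membranes and elastic fibres. The Sham hearts had 45.4, 40.8 and 30.4 CPM and the IR hearts 68.2, 71.7 and 52.5 CPM. The IR virus hearts had 97.1, 64.0 and 73.9 CPM and the IR edit hearts 51.9, 48.0, 41.9 and 59.6 CPM. All 6 injured hearts without the editing system stood above all Sham hearts, and 3 of the 4 IR edit hearts did. The log2 difference from Sham was 0.72 ± 0.18 in IR (adjusted p = 0.237), 1.01 ± 0.18 in IR virus (adjusted p = 0.0744) and 0.37 ± 0.16 in IR edit (adjusted p = 0.183). For the 6 IR and IR virus hearts together it was 0.87 ± 0.16 (adjusted p = 0.0504), with adjusted p from 0.0151 to 0.21 as single libraries were left out. From IR virus to IR edit Fbln1 was lower by a log2 fold change of -0.64 ± 0.16, a 95% interval of -0.98 to -0.29 (adjusted p = 0.0571). That comparison passed with DESeq2's Wald test (adjusted p = 0.00892) and in 4 of the 13 fits that left out 1 library, where adjusted p ranged from 0.0386 to 0.319. From IR to IR edit the difference was -0.35 ± 0.16 (adjusted p = 0.343). There the groups overlapped, with IR edit replicate 4 above IR replicate 3.

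The LTBPs are large microfibril proteins related to fibrillins. Ltbp2 encodes the member that does not bind latent TGF-β and that interacts with fibrillin-1 and fibulin-5. Its levels were 3.78, 3.27 and 1.51 CPM in Sham and 19.8, 18.0 and 10.3 CPM in IR hearts. They were 29.5, 13.6 and 21.9 CPM in IR virus and 11.5, 31.7, 4.04 and 52.2 CPM in IR edit hearts. No injured heart overlapped Sham, but within IR edit the highest heart had 12.9 times the level of the lowest. Ltbp2 rose in IR edit against Sham by 3.10 ± 0.67 on the log2 scale, or 8.59-fold (adjusted p = 0.0137). Large differences in IR (2.47 ± 0.70, adjusted p = 0.322) and IR virus (2.90 ± 0.70, adjusted p = 0.132) did not pass. The difference between IR edit and IR virus was 0.20 ± 0.55 (adjusted p = 0.9), and it turned negative without IR edit replicate 4 or IR virus replicate 2.

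Ltbp3 encodes an LTBP that binds all forms of latent TGF-β. Sham hearts had 20.7, 17.6 and 14.2 CPM and IR hearts 21.8, 24.1 and 19.1 CPM. IR virus hearts had 34.2, 27.1 and 25.2 CPM and IR edit hearts 25.2, 29.1, 19.3 and 37.2 CPM. The IR virus hearts stood wholly above Sham, and IR replicate 3 and IR edit replicate 3 within the Sham range. Ltbp3 rose in IR edit against Sham by 0.66 ± 0.19 (adjusted p = 0.0419), close to the threshold. Its differences from Sham were 0.31 ± 0.20 in IR (adjusted p = 0.71) and 0.72 ± 0.20 in IR virus (adjusted p = 0.156), and that between IR edit and IR virus was -0.06 ± 0.18 (adjusted p = 0.92).

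Ltbp4 encodes an LTBP that helps fibulin-5 deposit elastin on microfibrils. Its levels were 155, 148 and 97.9 CPM in Sham and 167, 179 and 155 CPM in IR hearts. They were 283, 223 and 187 CPM in IR virus and 216, 259, 131 and 299.8 CPM in IR edit hearts. Every IR and IR virus heart stood above Sham, and IR edit replicate 3 fell within the Sham range. No comparison of Ltbp4 passed: the log2 differences from Sham were 0.32 ± 0.24 in IR (adjusted p = 0.753), 0.79 ± 0.24 in IR virus (adjusted p = 0.18) and 0.76 ± 0.23 in IR edit (adjusted p = 0.0507). Between IR edit and IR virus it differed by -0.03 ± 0.22 (adjusted p = 0.971), with an interval of -0.50 to 0.44.

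Ltbp1 encodes the first known carrier of latent TGF-β1 and did not share the pattern of the other 9 genes. The Sham hearts had 78.2, 84.5 and 70.4 CPM and the IR hearts 69.5, 73.1 and 71.9 CPM. The IR virus hearts had 78.3, 80.3 and 76.6 CPM and the IR edit hearts 76.8, 62.5, 79.1 and 60.9 CPM. All 3 injured groups overlapped Sham, and the lowest hearts of all were IR edit replicates 2 and 4, which were among the highest for most other genes of the set. The 95% interval of the log2 difference from Sham was -0.33 to 0.09 in IR, -0.20 to 0.23 in IR virus and -0.35 to 0.04 in IR edit. From IR virus to IR edit the difference was -0.17 ± 0.09 (adjusted p = 0.417).

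**Figure D2:**
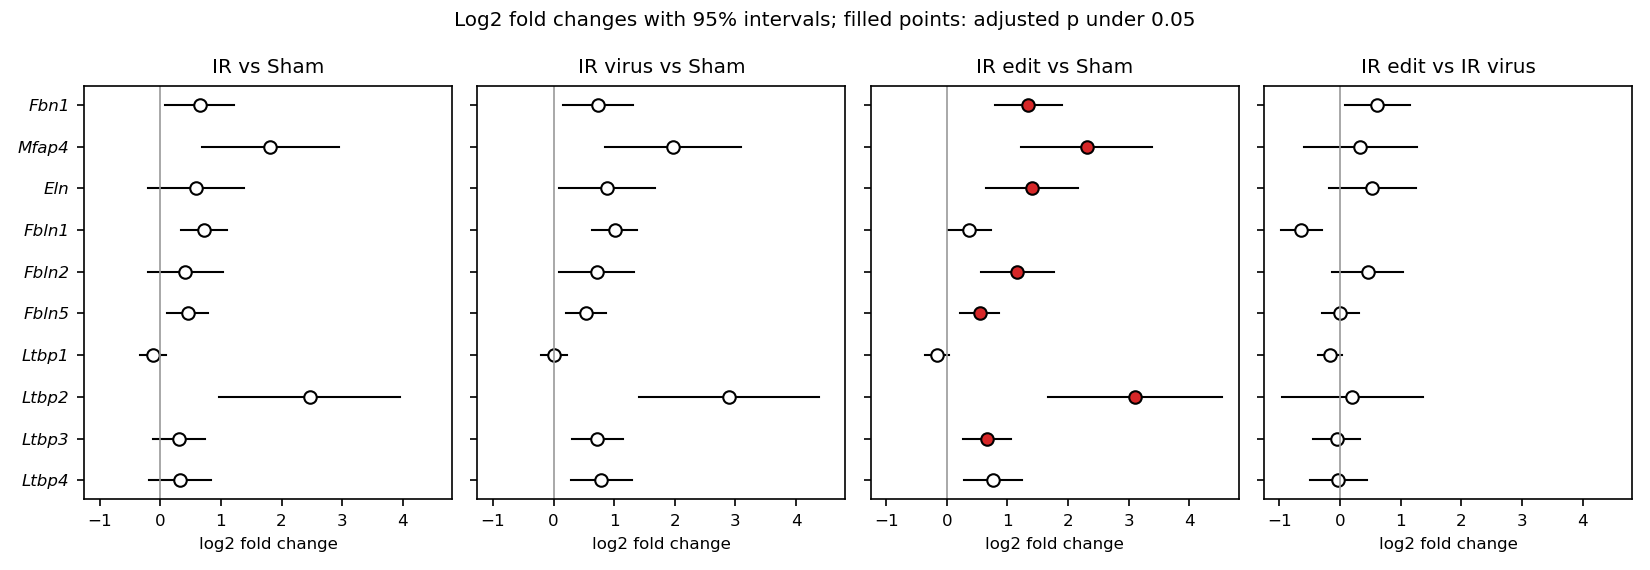
Log2 fold change (x axis) of each gene (y axis) in 4 comparisons, with 95% intervals as lines; filled points have an adjusted p under 0.05. Filled points appear only for 7 genes in IR edit vs Sham. The unadjusted intervals of Fbn1, Fbln1, Fbln5, Ltbp2 and Mfap4 lie above 0 in all 3 comparisons against Sham, which share their Sham hearts. An unadjusted edgeR p under 0.05 was reached by 8.33%, 15.4% and 23.6% of all genes in IR, IR virus and IR edit against Sham. The share of all genes that did so in all 3 was not computed.

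The comparison of IR with Sham concerns injury in uninjected hearts. Of the 10 genes 9 had a positive log2 fold change in IR against Sham, against 50.2% of all genes tested. Their median was 0.52, and that of all genes 0.00. None was called with edgeR's quasi-likelihood test, where 0.0127% of all genes were called in either direction. At an unadjusted p under 0.05 there were 5 of the 10, against 8.33% of all genes, and DESeq2's Wald test called 1, Fbln1 (0.363% of all genes). Every IR heart stood above every Sham heart for 6 of the 10 genes, against 7.94% of all genes. A fit without the IR edit hearts called 3 of the 10 (Fbln5, Ltbp2 and Mfap4), against 1.01% of all genes tested in it.

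With the control virus, all 10 genes had a positive log2 fold change against the same Sham hearts, where 51.7% of all genes did, with a median of 0.76 (all genes 0.01). None was called by edgeR, where 0.0127% of all genes were called, while 9 had an unadjusted p under 0.05 (15.4% of all genes). The DESeq2 Wald test called 3, namely Fbln1, Ltbp2 and Ltbp3, against 1.29% of all genes. For 7 genes the hearts were all above Sham, against 11% of all genes. Without the IR edit hearts 6 were called, against 2.03% of genes. Without IR edit replicate 3 alone 4 were called, namely Fbln1, Ltbp2, Ltbp4 and Mfap4, against 0.831% of genes. Leaving out IR edit replicate 4 gave 2 (0.333% of genes). Leaving out IR replicate 3 or IR virus replicate 2 gave 1 (0.0753% and 0.0439% of genes).

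When the 6 IR and IR virus hearts were set together against Sham, 9 of the 10 genes had a positive log2 fold change (51.1% of all genes), with a median of 0.63 (all genes 0.00). Fbln1 came closest to the threshold (adjusted p = 0.0504), followed by Ltbp2 at 2.68 ± 0.65 (0.0956) and Mfap4 at 1.89 ± 0.48 (0.11). The 6 other positive differences ran from 0.49 ± 0.14 for Fbln5 to 0.73 ± 0.33 for Eln, with adjusted p from 0.157 to 0.351, and Ltbp1 differed by -0.05 ± 0.09 (0.818). No gene of the 10 was called, where 0.0191% of all genes were, and 9 had an unadjusted p under 0.05 (14% of all genes). The DESeq2 Wald test and the fit without the IR edit hearts each called 4, namely Fbln1, Fbln5, Ltbp2 and Mfap4, against 1.54% and 2.56% of the genes tested. The same number was called without IR edit replicate 3 or without IR edit replicate 4 (1.6% and 0.839% of all genes). All 6 injured hearts stood above all Sham hearts for 5 genes (Fbln1, Fbln5, Ltbp2, Ltbp4 and Mfap4), against 4.79% of all genes.

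In the injured hearts given the editing system, 7 of the 10 genes rose against Sham and none fell, where 4.61% of all genes rose and 8.01% were called in either direction. The log2 fold change was positive for 9 genes (49.8% of all genes), with a median of 0.96 over the 10 (all genes 0.00), and 9 had an unadjusted p under 0.05 (23.6% of all genes). For 5 genes (Fbn1, Eln, Fbln5, Ltbp2 and Mfap4) all IR edit hearts lay above Sham, against 8.22% of all genes. The count rested on single hearts. Without Sham replicate 3 only Fbn1 was called (4.16% of all genes in either direction). Without Sham replicate 2, IR edit replicate 2 or IR edit replicate 4 the calls were Fbn1, Ltbp2 and Mfap4 (5.02%, 3.06% and 3.52% of all genes). Without IR edit replicate 3 there were 8 calls, Ltbp4 being added (15% of all genes). With only the Sham and IR edit libraries in the fit 2 genes were called (Eln and Fbn1), against 1.62% of all genes, and with robust dispersion estimates 2 (Fbln5 and Fbn1), against 7.16%. This comparison shares its Sham hearts with the 3 above, and that a gene passed here and not there was not tested as a difference.

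The comparison of IR edit with IR virus sets the editing system against its virus control. Of the 10 genes 6 had a positive and 4 a negative log2 fold change, where 48.5% of all genes had a positive one, with a median of 0.10 (all genes -0.01). None was called by edgeR, where 2.02% of all genes were, and 2 had an unadjusted p under 0.05, Fbn1 higher and Fbln1 lower (15.2% of all genes). Fbln1 alone separated the groups, with the IR edit hearts below, against 7.07% of all genes, and it was the 1 gene called by DESeq2 (3.3% of all genes). The sign of the difference turned for Ltbp2, Ltbp3, Ltbp4, Fbln5 and Mfap4 when 1 of several libraries was left out.

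Against uninjected IR hearts the IR edit hearts gave no call either, where 1.42% of all genes were called by edgeR. The 3 genes with the smallest p were Fbn1 at 0.69 ± 0.25 (adjusted p = 0.213), Fbln2 at 0.75 ± 0.28 (0.218) and Eln at 0.81 ± 0.34 (0.289). Of the 10 genes 4 had an unadjusted p under 0.05 (14.5% of all genes), these 3 higher and Fbln1 lower. DESeq2 called 0 (2.82% of all genes), and Fbln2 alone passed without IR edit replicate 3 (3.13% of all genes). The control virus against no injection gave no call among the 10 or among all genes (0%), by edgeR or by DESeq2, and no gene of the set reached an unadjusted p under 0.05 (3.84% of all genes). There the 3 smallest p belonged to Ltbp3 at 0.41 ± 0.20, Ltbp4 at 0.47 ± 0.24 and Fbln1 at 0.29 ± 0.17 (adjusted p = 0.962 for each). For Ltbp1, Ltbp3, Ltbp4 and Fbln2 all IR virus hearts lay above all IR hearts, against 5.86% of all genes.

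The make-up of the 2 gene families also differed between groups when levels were taken per kilobase of exon. Fbln1 made up 45.4 ± 1.53% of the summed CPM per kb of the 3 fibulin genes in Sham, 50.3 ± 1.67% in IR and 51.0 ± 2.07% in IR virus (SD, n = 3 each). In IR edit hearts it made up 39.8, 30.4, 44.5 and 29.5%, below every IR and IR virus heart, with replicate 3 within the Sham range. Fbln2 made up 37.6 ± 0.892% in IR virus and 48.4, 58.4, 42.0 and 59.3% in IR edit hearts, with no overlap between those groups. Fbln5 held between 9.59% and 16.7% of the fibulin sum in all hearts. Among the LTBPs, Ltbp2 made up 1.12 ± 0.295% in Sham, 5.27 ± 1.44% in IR, 5.38 ± 1.59% in IR virus and 5.56 ± 3.91% in IR edit. Ltbp1 made up 24.5 ± 3.30% in Sham, 18.2 ± 1.30% in IR, 15.3 ± 2.47% in IR virus and 16.1, 11.01, 24.4 and 9.10% in the IR edit hearts, of which replicate 3 lay within the Sham range. Ltbp4 held between 64.5% and 75.7% in every heart. The shares within a family sum to a fixed total, so a higher share of one gene lowers the others, and they were not tested.

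**Figure D3:**
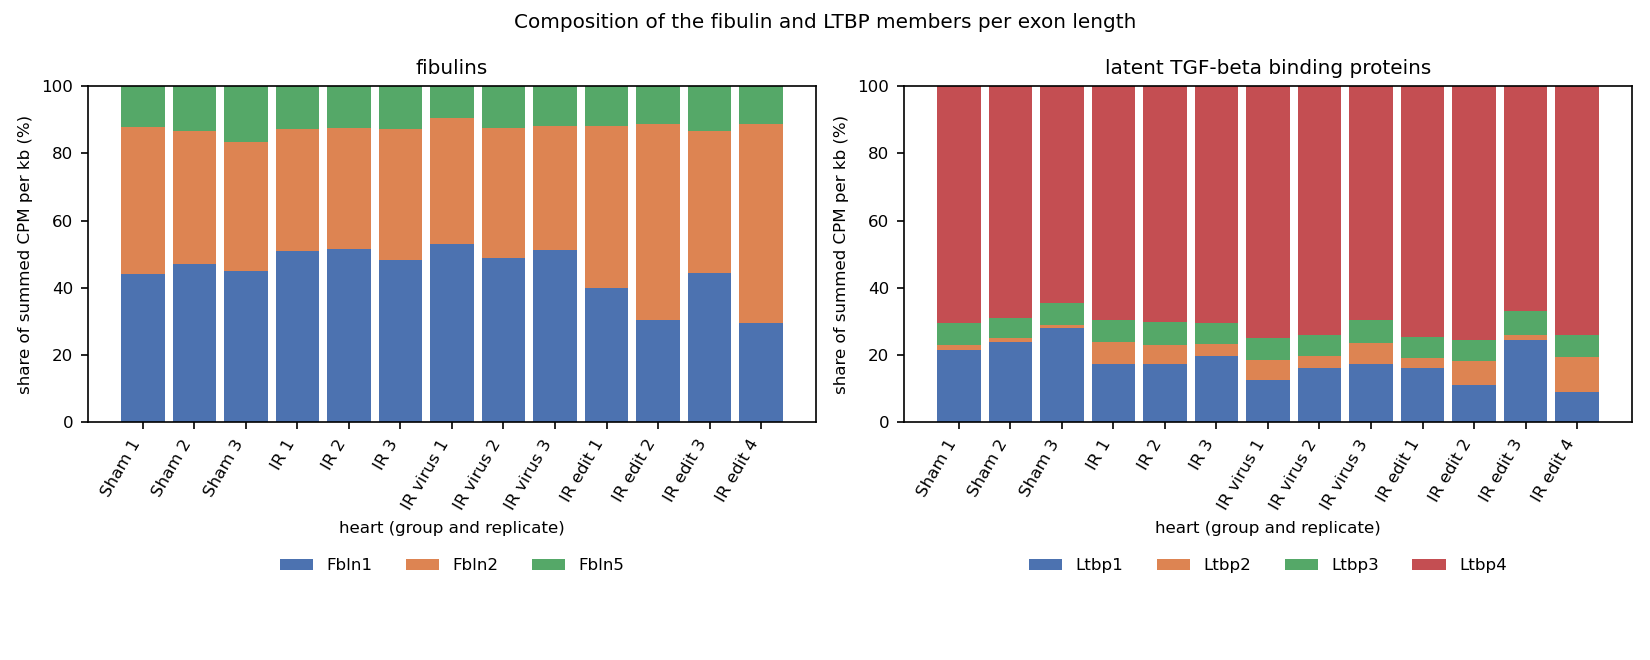
Share of each fibulin gene (left) and each LTBP gene (right) in its family's summed CPM per kb (y axis, percent) in each of the 13 hearts (x axis). The Fbln1 share is 48.4% or more in the 6 injured hearts without the editing system and 44.5% or less in the 4 IR edit hearts, and the Ltbp2 share is at most 1.36% in Sham hearts.

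Hearts of 1 group differed in the same direction for most of the set. After each group's mean was subtracted, 36 of the 45 pairs of genes correlated positively over the 13 hearts, with a median Pearson r of 0.76. The highest r was 0.98, between Ltbp2 and Mfap4, and Ltbp1 correlated negatively with all 9 others, from -0.69 with Fbln5 to -0.08 with Fbln1. These coefficients describe hearts that share their library, depth and tissue sample for all genes, so they carry no test. The mean standardised level of the 10 genes ran from -1.54 in Sham replicate 3 to 1.21 in IR edit replicate 4. IR edit replicate 4 held the highest level of 8 of the 10 genes over the 13 hearts, and Sham replicate 3 the lowest level of 7. IR edit replicate 3 had a mean standardised level of -0.55, against 0.28, 0.66 and 1.21 in IR edit replicates 1, 2 and 4.

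Summed markers of some cell types also differed between hearts, in part along with these levels and in part not. The summed fibroblast markers were 876, 855 and 872 CPM in Sham, 1251, 1259.7 and 956 in IR, 1264, 1036 and 1276 in IR virus, and 985, 1147, 898 and 1333 in IR edit. They were lowest in replicate 3 of IR and of IR edit and highest of all in IR edit replicate 4, but Sham replicate 3, the lowest heart for 7 of the 10 genes, was not the lowest Sham heart for them. All 7 fibroblast markers had a positive log2 fold change against Sham in IR, IR virus and IR edit, with medians of 0.31, 0.39 and 0.27. By edgeR 0, 0 and 3 of the 7 were called higher, against 0.0127%, 0.0127% and 8.01% of all genes in either direction. In IR edit 4.61% of all genes were called higher. The summed smooth muscle markers were 1218, 1229.9 and 997 CPM in Sham, 1208, 1153 and 1267 in IR, 1431, 1406 and 1247 in IR virus, and 1319.6, 1418, 1162 and 1535 in IR edit. Des, at 776 to 1308 CPM, made up most of this sum and is also abundant in heart muscle cells. Of the 7 smooth muscle markers 2 had a positive log2 fold change against Sham in each of IR, IR virus and IR edit, with medians of -0.15, -0.19 and -0.19. Of these 7 edgeR called 0, 0 and 1 higher and none lower, beside the same shares of all genes as for the fibroblast markers. Within IR the sum was highest in replicate 3. The summed cardiomyocyte markers were 41698 to 50089.7 CPM in Sham, 40390.3 to 43024 in IR and 43437 to 46615 in IR virus. In IR edit they were 44864, 39216, 46899 and 36956 CPM, lowest of all hearts in replicate 4. The summed atrial markers were 79.7, 78.4 and 19.1 CPM in Sham, 148 to 231 in IR, 209 to 228 in IR virus, and 124, 369.8, 71.7 and 436 in IR edit. Nppa, which stressed ventricles also express, reached 422 CPM and made up most of that sum, and 5 of the 6 atrial markers were counted in every heart. Summed adipocyte markers stayed at or below 3.78 CPM, with Ucp1 at 0 in 12 libraries. The part of these cell types in the differences above was not tested.

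**Figure D4:**
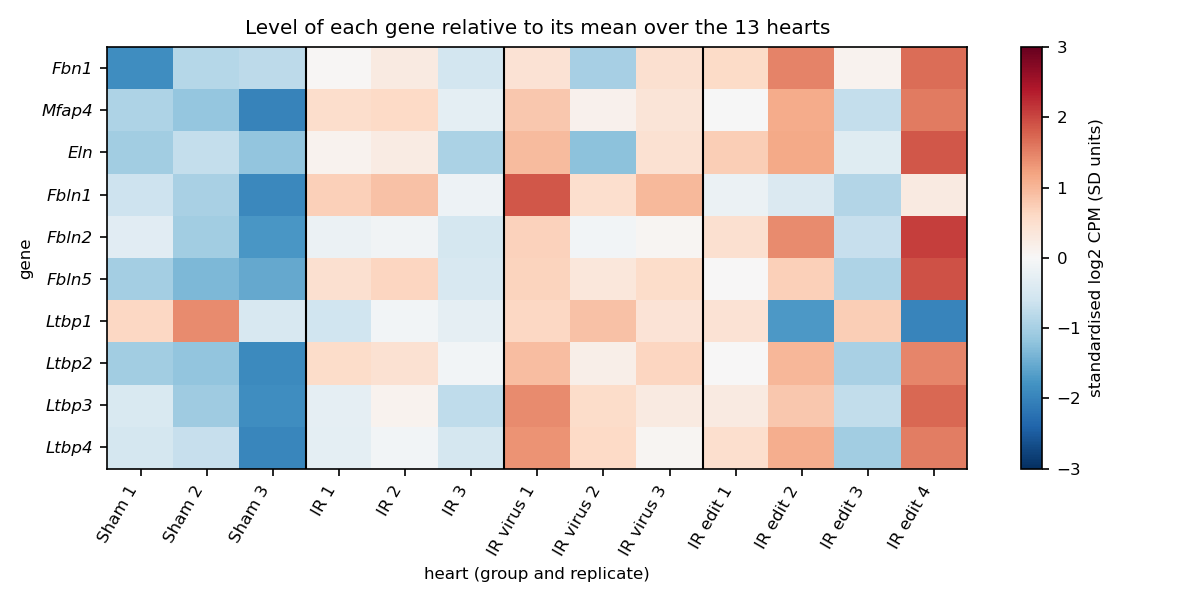
Level of each gene (rows) in each heart (columns, by group and replicate) as log2 CPM minus the gene's mean over the 13 hearts, divided by its SD (colour, SD units). Sham replicate 3 is the lowest heart for 7 genes and IR edit replicate 4 the highest for 8, and Ltbp1 runs against the other rows in IR edit replicates 2 and 4.

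Other genes of elastic fibre assembly were read from a list of 21 partners, all of them tested. Against Sham, 7 of the 21 rose and 1 fell in IR edit hearts, with a median log2 fold change of 0.74 over the list. Of all genes 4.61% rose and 8.01% were called in either direction. Fbn2, which encodes fibrillin-2, the fibrillin of developing tissue, rose from 2.41 ± 0.744 to 11.5 ± 3.42 CPM (2.27 ± 0.30, adjusted p = 0.001). Adamtsl2, whose product binds fibrillin-1 and LTBP-1, rose from 4.13 ± 1.05 to 33.5 ± 21.7 CPM (3.02 ± 0.46, adjusted p = 0.0019). Both were called with each library left out in turn. Vcan, encoding the proteoglycan versican, rose by 1.53 ± 0.35 (adjusted p = 0.019) and Mfap5, encoding a microfibril-associated glycoprotein, by 1.43 ± 0.33 (adjusted p = 0.0193). The 1 partner that fell was Efemp1, encoding fibulin-3, which was named after its value was seen (log2 fold change -1.17 ± 0.27, adjusted p = 0.0196). A replicate block fits a term per replicate number, and as only IR edit has a replicate 4, it also sets that heart aside. The number that rose was 2 without IR edit replicate 2, 2 with robust dispersion, 3 with the replicate block and 2 with only the Sham and IR edit libraries. Those fits called 3.06%, 7.16%, 3.76% and 1.62% of all genes in either direction.

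Of the partners 0 were called in IR, IR virus or both together against Sham by edgeR. The smallest p belonged to Fbn2 in IR (1.10 ± 0.33, adjusted p = 0.379) and to Loxl1, a cross-linking lysyl oxidase, in IR virus (1.15 ± 0.28, adjusted p = 0.132) and in both together (0.98 ± 0.25, adjusted p = 0.115). At an unadjusted p under 0.05 there were 10, 11 and 11 of the 21, against 8.33%, 15.4% and 14% of all genes. DESeq2's Wald test called 0, 0 and 1 of them (0.363%, 1.29% and 1.54% of all genes). Fits without the IR edit hearts called 3, 5 and 5 higher and 0, 1 and 1 lower (1.01%, 2.03% and 2.56% of all genes in either direction). From IR virus to IR edit Fbn2 was the 1 partner called (2.02% of all genes), higher at 1.25 ± 0.28 (adjusted p = 0.0301), with all 4 IR edit hearts above all 3 IR virus hearts. That call was lost without any 1 of the IR virus hearts and without IR edit replicate 2 or 4. With robust dispersion 0 partners were called (1.96% of all genes), and with the replicate block 0 (1.01%).

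TGF-β ligands, activators and receptors, the system that LTBPs serve, formed a list of 19 genes. In IR edit hearts 6 rose and 1 fell against Sham, with a median of 0.22, where 8.01% of all genes were called in either direction. Thbs1, encoding the TGF-β activator thrombospondin-1, rose from 14.4 ± 4.61 to 55.6 ± 29.7 CPM (1.95 ± 0.37, adjusted p = 0.00721). The integrin subunit genes Itgb3 (1.07 ± 0.19, adjusted p = 0.00476) and Itgb5 (0.69 ± 0.16, adjusted p = 0.0194) rose, as did the ligand gene Tgfb3 (0.90 ± 0.22, adjusted p = 0.0223). The gene that fell was Tgfbr3, encoding the co-receptor betaglycan, also named after its value was seen (-0.51 ± 0.13, adjusted p = 0.0294). The number that rose was 2 without IR edit replicate 2, 3 with the replicate block and 2 with only the groups compared, where 0 fell in both of the latter. Those fits called 3.06%, 3.76% and 1.62% of all genes in either direction. Itgb3 and Thbs1 were called with every library left out in turn.

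In the other comparisons against Sham 0 of the 19 were called by edgeR, and Tgfb3 had the smallest p in each: 0.84 ± 0.23 in IR (adjusted p = 0.299), 0.91 ± 0.23 in IR virus (0.138) and 0.88 ± 0.20 in both (0.0876). At an unadjusted p under 0.05 there were 4, 5 and 5 in those comparisons, against 8.33%, 15.4% and 14% of all genes. The DESeq2 Wald test called 0, 1 and 2 (0.363%, 1.29% and 1.54% of all genes), and fits without the IR edit hearts called 2, 2 and 3 (1.01%, 2.03% and 2.56%). In IR edit against IR virus 2 were called (2.02% of all genes), both integrin subunit genes and both higher: Itgb6, from 23.7 ± 2.31 to 39.2 ± 5.47 CPM (0.72 ± 0.15, adjusted p = 0.0222), and Itgb3, from 2.17 ± 0.394 to 3.76 ± 0.497 CPM (0.79 ± 0.18, adjusted p = 0.0343). Neither was called without any 1 of the 3 IR virus hearts, and Itgb3 was called in 7 of the 13 fits that left out 1 library. With only the groups compared 1 of the list was called (1.44% of all genes).

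Genes known to respond to TGF-β formed a list of 12, of which 11 were tested. In IR edit hearts 4 rose against Sham and none fell, with a median of 0.70, where 4.61% of all genes rose. They were Pmepa1, encoding an inhibitor of SMAD signalling (1.19 ± 0.22, adjusted p = 0.00546), Skil, encoding the SMAD repressor SnoN (0.76 ± 0.17, 0.017), the collagen gene Col1a1 (1.10 ± 0.26, 0.0202) and the periostin gene Postn (2.01 ± 0.52, 0.0297). Col1a1 is also among the fibroblast markers. Without IR edit replicate 2 only Pmepa1 was called, and 2 genes of the list were called with robust dispersion, 1 with the replicate block and 1 with only the groups compared. Those fits called 3.06%, 7.16%, 3.76% and 1.62% of all genes in either direction. In the other comparisons against Sham 0 were called by edgeR, with the smallest p for Comp, a cartilage matrix gene, in IR (2.60 ± 0.64, adjusted p = 0.244) and in both together (2.79 ± 0.59, 0.0789), and for Col1a1 in IR virus (1.36 ± 0.27, 0.0867). There were 4, 5 and 5 genes at an unadjusted p under 0.05 (8.33%, 15.4% and 14% of all genes), and 0, 2 and 3 called by the DESeq2 Wald test (0.363%, 1.29% and 1.54%). Without the IR edit hearts 3, 5 and 5 were called (1.01%, 2.03% and 2.56%). Between IR virus and IR edit Skil alone was called (2.02% of all genes), higher at 0.77 ± 0.17 (adjusted p = 0.0317), a call lost without any 1 IR virus heart or IR edit replicate 2 or 4. No gene of the list was called higher there with robust dispersion, the replicate block (1 lower) or only the groups compared. These fits called 1.96%, 1.01% and 1.44% of all genes in either direction.

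Proteases that can cut elastin and their inhibitors formed a list of 15, of which 13 were tested. In IR edit against Sham 2 rose (4.61% of all genes), Timp1, encoding an inhibitor of metalloproteinases (2.24 ± 0.52, adjusted p = 0.0194), and Mmp14, encoding a membrane-bound metalloproteinase (0.74 ± 0.21, adjusted p = 0.0441). Neither was called without Sham replicate 1, Sham replicate 2 or IR edit replicate 2, and Mmp14 was called in 4 of the 13 fits that left out 1 library. The list had 0 calls with the replicate block (3.76% of all genes), and 1 with robust dispersion (7.16%) or with only the groups compared (1.62%). Timp1 also had the smallest p in IR (2.34 ± 0.54, adjusted p = 0.22), IR virus (2.36 ± 0.54, 0.123) and both together (2.35 ± 0.50, 0.0772), where 0 of the 13 were called by edgeR. At an unadjusted p under 0.05 there were 7, 5 and 7, against 8.33%, 15.4% and 14% of all genes. DESeq2's Wald test called 1, 2 and 3 (0.363%, 1.29% and 1.54% of all genes), and fits without the IR edit hearts 1, 2 and 2 (1.01%, 2.03% and 2.56%). Compared with IR virus, in IR edit hearts Mmp12, the gene of macrophage elastase, fell from 1.34 ± 0.336 to 0.372 ± 0.0515 CPM (-1.82 ± 0.33, adjusted p = 0.0116), where 2.02% of all genes were called. That call was lost without IR virus replicate 3 and with the replicate block. Its 4 IR edit hearts together held few reads, at most 12 in a library, and the summed macrophage markers were 129 to 136 CPM in IR virus and 115 to 160.3 CPM in IR edit.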

How the data were processed

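Bulk RNA-seq libraries of 13 mouse hearts in 4 groups, formed from the sample titles, were analysed. The deposited values are raw counts of reads, listed by gene symbol for each library. Per the submitters' processing notes the authors counted with featureCounts (version 1.6.2) after alignment with HISAT2 (version 2.1.0) to mm10, with Trimmomatic 0.39 and FastQC 0.11.8 also named. The sources used here do not give the strand setting. Counts without strand or molecular identifiers can mix overlapping genes and duplicate fragments. The values of 1 item are not reported here. Each library held 20634820 to 27265276 counts.

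In R 4.3.3, edgeR 4.0.16 (TMM, filterByExpr, quasi-likelihood test, 9 residual and 6.083 prior degrees of freedom, common biological coefficient of variation 0.116) was fitted to all 13 libraries with 1 mean per group, and p-values were adjusted over 15690 genes by the Benjamini-Hochberg method. The SE is the absolute log2 fold change over the square root of F. The 7 contrasts include the mean of IR and IR virus against Sham. Exon lengths are unions of GENCODE M21 exons. Tested on simulated data, the fit recovered 80% of genes changed 2-fold and 94.8% of those changed 4-fold in IR edit against Sham (15484 genes). In IR against Sham it recovered 75% and 95.9% (15469 genes). In the real hearts no gene of the set was called in IR against Sham, with Ltbp2 at 5.53-fold and Mfap4 at 3.51-fold. The recovery on simulated data therefore does not say how likely a change in these genes was to be called. Replicates of a group differed by more than sampling noise (chi-square per degree of freedom 4.45 to 51.4), so each library was counted as 1 sample.

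The 10 genes and the lists were chosen with earlier results of these data known. Named were all 10 genes in the comparisons with Sham and of IR edit with IR virus, the 3 with the smallest p in the other comparisons, and, per pathway list, up to 4 called genes with the smallest p or the single smallest where none was called. Also named were Camk2d and the 5 other genes most correlated with the set. The alternatives were DESeq2 1.42.0 (size factors or Wald test), no filter on low counts, a filter of 1 CPM in 3 libraries, robust dispersion, a replicate block, fits of fewer groups, and each library left out. Their use on the pathway lists was chosen after seeing the data. The replicate block adds a term per replicate number. Only IR edit has a replicate 4, so this block fits that heart exactly and takes it out of the group differences.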

Additional observations from a re-analysis of the deposited data

How the results depend on the processing

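The number of the 10 genes called against Sham depended on the settings. Percentages in brackets are the share of all genes called in the same fit. In IR it was 0 (0.0127%), and 7 (1.87%) with no filter on low counts. It was 1 (0.363%) by DESeq2's Wald test, 2 (0.769%) with only the groups compared and 3 (1.01%) without the IR edit group. As single libraries were left out it was 0 to 0. In IR virus it was 0 (0.0127%), and 9 (2.7%) with no filter, 6 (1.11%) with the replicate block and 3 (1.29%) by the Wald test. It was 5 (1.35%) with only the groups compared and 6 (2.03%) without the IR edit group, with 0 to 4 as single libraries were left out. For IR and IR virus together it was 0 (0.0191%), and 1 (0.166%) with DESeq2 size factors, 9 (2.94%) with no filter and 6 (1.15%) with the block. It was 4 by the Wald test (1.54%), with only the groups compared (2.56%) and without the IR edit group (2.56%), with 0 to 4 over left-out libraries. In IR edit it was 7 (8.01%), and 2 (7.16%) with robust dispersion and 2 (1.62%) with only the groups compared, with 1 to 8 over left-out libraries. Other counts were within 1.5 times. Between IR edit and IR virus it was 0 (2.02%), and 4 (3.18%) with no filter, 1 (1.01%) with the block and 1 (3.3%) by the Wald test. Its range over left-out libraries was 0 to 1. Between IR edit and IR it was 0 (1.42%), and 8 (3.19%) with no filter (range 0 to 1). Between IR virus and IR it was 0 (0%), and 1 (0.116%) with no filter (range 0 to 0). The fit with no filter took 31973 genes and estimated infinite prior degrees of freedom, which gives every gene the same trended variance, so its calls are not comparable with the others. For the other settings the cause was not tested. Over all genes the Wald test called 57 in IR and 202 in IR virus against Sham, where edgeR called 2 in each, and only the groups compared gave 246 in IR edit against Sham, where the fit of all groups gave 1257.

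The sign of a difference turned in 18 cases, none of them past the threshold. For Ltbp1 in IR virus against Sham it was -0.0045 with no filter and ran from -0.057 (without Sham replicate 3) to 0.076 (without Sham replicate 2) as single libraries were left out. For Ltbp1 in IR and IR virus together it ran from -0.12 to 0.0090 without the same libraries. The others were between IR edit and IR virus. Only IR edit has a replicate 4, so the replicate block also takes that heart out of the differences. The block is therefore not a separate check from leaving that heart out. With the replicate block the difference was -0.70 for Ltbp2, -0.17 for Fbln5 and -0.29 for Mfap4. As single libraries were left out it ran from -0.44 to 0.55 for Ltbp2, from -0.22 to 0.084 for Ltbp3, from -0.18 to 0.16 for Ltbp4, from -0.15 to 0.12 for Fbln5 and from -0.13 to 0.63 for Mfap4. The lowest value came without IR edit replicate 4 for all 5, and the highest without IR edit replicate 3 for all but Ltbp3 (without IR virus replicate 1). The titles share replicate numbers between groups but do not say whether these mark a shared batch. Of 18 same-numbered pairs 4 correlated above 0.1, and 6 of 12 libraries correlated best with their own number. With 3 or 4 hearts in a group these values cannot decide whether same-numbered hearts shared a batch.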

Other observations

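Over the 13 hearts, the Pearson correlation with the mean standardised log2 CPM of the 10 genes was 0.99 for Islr, 0.98 for Prelp, 0.97 for Bgn, 0.96 for Map1a and 0.96 for Ipo9, the 5 highest outside the set. All hearts share their library and depth across genes, so these are descriptions with no test. Bgn, encoding the proteoglycan biglycan, had 125 ± 21.2 CPM in Sham, 238 ± 35.4 in IR, 279 ± 51.8 in IR virus and 327 ± 157 in IR edit (SD, n = 3, 3, 3 and 4). Prelp, encoding a leucine-rich matrix protein that anchors basement membranes, had 35.9 ± 8.95, 50.1 ± 4.86, 63.0 ± 10.7 and 63.9 ± 19.7 CPM in the same order. Islr had 11.2 ± 1.31, 17.1 ± 2.91, 19.9 ± 3.16 and 19.6 ± 5.25 CPM. Within the set the correlation with that mean, which each gene helps to form, was 0.97 for Mfap4, Ltbp3 and Ltbp2, 0.78 for Fbln1 and Fbn1, and -0.40 for Ltbp1.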
